A study of Mus musculus with 4 samples.

Results

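The 67 replication-dependent histone genes of the mouse annotation, of 55536 genes measured, are described here in polyadenylated RNA from macrophages. They were taken by name, as every gene whose symbol begins with Hist1h, Hist2h, Hist3h or Hist4h and that has a protein-coding transcript, and not by their values. They comprise 6 H1, 18 H2a, 18 H2b, 12 H3 and 13 H4 genes. Of these, 54 lie on chromosome 13, 10 on chromosome 3, 2 on chromosome 11 and 1 on chromosome 6. A further 3 symbols of the same form have no protein-coding transcript and were left out.

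The cells were macrophages derived in culture from bone marrow of C57BL/6J mice, and all 4 libraries were of 1 group that had received a stimulus at 100 ng/mL for 60 minutes. One label names the stimulus lipid A and others name it lipoprotein A. Age and sex were not collected, the libraries carry 1 donor label, and nothing says that the biological replicates numbered 1 to 4 came from separate animals or cultures, so their spread may be technical. No unstimulated cells were analysed here, so nothing below measures a response to the stimulus.

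Replication-dependent histone genes supply the histones that package newly copied DNA, and their transcription peaks in S phase. Their messenger RNAs usually end just after a conserved stem-loop in place of a poly(A) tail: stem-loop binding protein, encoded by Slbp, holds the loop while the transcript is cut downstream of it. Some of these genes also make polyadenylated transcripts in cells that have stopped dividing, and a selection for polyadenylated RNA captures those rather than the stem-loop form. Replacement histones such as H3f3a and H3f3b come from genes outside these clusters, carry poly(A) tails and are made throughout the cell cycle.

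The 3′ ends of the annotated transcripts are shown first, since this selection acts on the 3′ end. A stem-loop sequence of the form GGNNCTNNNNAGNNCC, searched on the transcript strand after the stop codon, was found in 45 of the 67 genes; in the other 22 it was not present in the annotated sequence, and 13 genes have no annotated bases after the stop codon. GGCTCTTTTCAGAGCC, the most common of 8 versions, was shared by 25 genes of the H1, H2a, H2b and H3 families. The H4 genes carried other versions, of which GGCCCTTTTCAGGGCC was found in 7. The sites of the genes with the highest levels follow, with the 16 bases of the loop in capitals, taken 5′ to 3′ from the GENCODE M21 transcripts.
Hist1h1c: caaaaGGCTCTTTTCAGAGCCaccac
Hist2h2aa1: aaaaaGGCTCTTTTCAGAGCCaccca
Hist3h2a: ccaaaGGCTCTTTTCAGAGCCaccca
Hist1h2ap: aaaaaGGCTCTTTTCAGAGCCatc
Hist1h4i: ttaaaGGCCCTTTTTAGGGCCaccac
Hist2h2aa2 has the same site as Hist2h2aa1. Annotated transcripts ran on past the loop by 840 bases in Hist1h1c, 1643 in Hist3h2a and 330 in Hist1h4i, but by 35 in Hist2h2aa1 and Hist2h2aa2 and by 3 in Hist1h2ap.

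The long transcripts of Hist1h1c, Hist3h2a and Hist1h4i, and that of Hist2h2be, which had no loop of this form, carried a poly(A) signal (AATAAA or ATTAAA) in their last 50 bases. The signals, in capitals, are shown with up to 20 of the bases that follow.
Hist1h1c: AATAAAaagcgtttagttttcattca
Hist3h2a: AATAAAataagagtacgtgtataaca
Hist2h2be: AATAAAgttaccgattagtttc
Hist1h4i: ATTAAAagtattctatgctaa
Such a signal was present in the longest coding transcript of 16 of the 67 genes. Over all 58797 protein-coding transcripts, with every transcript of a gene counted, the share was 50.2%, so the units differ.

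Hist1h2bc, the H2b gene with the highest level, had another arrangement. Its only annotated transcript is spliced: the first exon, chr13:23684199-23684621 on the plus strand of mm10, ends 9 bases after the stop codon, and a 733-base second exon, chr13:23692176-23692908, follows an intron of 7554 bases. The stem-loop form was found in neither exon. The junction is shown with the first bases of the second exon in capitals; the stop codon tga is the second triplet.
Hist1h2bc: aagtgatcctgccaaGAGGAGCAGACCTGA
No other of the genes at 1 TPM in every library had a spliced coding transcript.

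Few of the histone genes were detected at more than trace levels. TPM values give the abundance of a gene's transcripts relative to all transcripts of a library, corrected for their length. Only 9 of the 67 genes, or 13.4%, stood at 1 TPM or more in all 4 libraries, against 43.8% of the 22028 protein-coding genes. Below 1 TPM in every library were 51 of the 67, or 76.1%, against 51.7% of protein-coding genes, and the other 7 passed in some libraries only. The median of the genes' mean TPM was 0.125, against 0.39 for protein-coding genes. A count of 0 in every library was found for 12 genes, which in the shallowest library allows up to 0.109 CPM, counts scaled to library size (3 counts), and 47 genes had fewer than 10 counts over all 4 libraries. Counting error alone is covered by this limit, not reads shared between genes. Under 50% of a gene's 50-base transcript stretches were unique to it in 26 of the 51 low genes and in 4 of the 9. The part of shared sequence in the low levels was not tested.

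**Figure D1:**
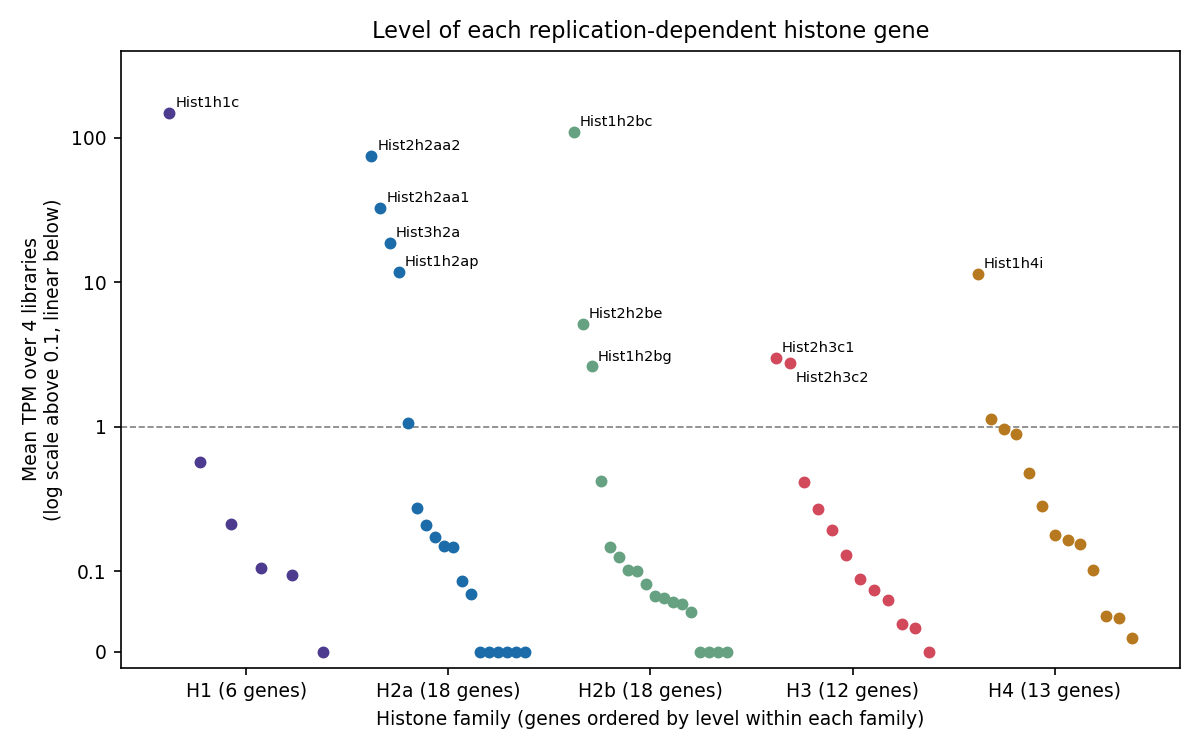
Mean TPM over the 4 libraries of each of the 67 histone genes (points, coloured by family), ordered by level within each family; the axis is logarithmic above 0.1 and linear below, and the dashed line marks 1 TPM. In each family a few genes stand above the others, led by Hist1h1c at 148 TPM, while most points lie under 1 TPM.

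Total gene counts were 26917324 in replicate 1, 30042947 in replicate 2, 35277710 in replicate 3 and 39438414 in replicate 4. Ribosomal RNA genes held between 3.43% and 12.4% of the counts, the most in replicate 1. All 10 macrophage markers were at 1 TPM in every library, while none of the B cell, T and NK cell, erythroid, stem and progenitor or stromal markers was. Of 10 neutrophil and precursor markers 4 were, with a summed level from 69.5 to 730 TPM that was highest in replicate 3; their part in the values below was not tested.

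The level of the whole set was carried by a handful of genes. Summed over all 67, the TPM was 275 in replicate 1, 604 in replicate 2, 341 in replicate 3 and 508 in replicate 4, a mean of 432 ± 151 (SD, n = 4). The 3 leading genes, Hist1h1c, Hist1h2bc and Hist2h2aa2, held 76.6% ± 2.73 of it and the 7 leading genes 94.5% ± 0.785. By family the sums were 149 ± 97.2 TPM for H1, 141 ± 23.8 for H2a, 119 ± 29.3 for H2b, 7.08 ± 3.24 for H3 and 15.8 ± 6.1 for H4 (SD, n = 4). The H1, H2a and H2b sums overlapped between libraries, whereas every library had less H3 and less H4 than any of these 3. Short transcripts weigh more in TPM than in counts: H2a genes made up 34.8% ± 10.1 of the histone TPM but 19% ± 4.5 of the histone counts, and H1 genes 31.5% ± 11.8 of the TPM and 46.1% ± 11.6 of the counts.

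Of the linker histones, which bind the DNA between nucleosomes, 1 of 6 was at 1 TPM in every library. Hist1h1c, chr13:23738808-23740367, had 48.8, 254, 86.1 and 204 TPM in replicates 1 to 4, a mean of 148 ± 96.5 (SD, n = 4). Replicates 2 and 4 were high and replicates 1 and 3 low. It ranked 807 among the 22028 protein-coding genes by mean TPM. The next linker histone, Hist1h1d, averaged 0.57 ± 0.441 TPM, and Hist1h1e 0.212 ± 0.0492 TPM, on annotated transcripts of 7425 and 1930 bases. Hist1h1b was listed at 0.42 TPM in replicate 2, from 4 counts, and at 0 in the others.

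Of the H2a genes, which encode a core histone that pairs with H2b, 4 of 18 were at 1 TPM in every library. Hist2h2aa2 had 80.1, 94.1, 60.4 and 66.9 TPM in replicates 1 to 4, and Hist2h2aa1 had 24, 40.7, 19.6 and 46.4 TPM. They lie on opposite strands at chr3:96239749-96240276 and chr3:96245497-96246082, and of the 50-base stretches of their transcripts 0% and 10.6%, in that order, occur in no other gene, so the split between them is uncertain. The deposited posterior SD of their counts was 22.1 to 31.8 counts in a library, against at most 0.14 counts for Hist1h1c. Added together they stood at 104, 135, 80 and 113 TPM, a mean of 108 ± 22.7 (SD, n = 4) with a range of 1.68-fold. Their sequence is shared with Gm20634, a non-coding transcript that overlaps Hist2h2aa1 and was at 4.37 to 11.5 TPM.

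Hist3h2a, chr11:58954685-58956830, was at 6.82, 32.4, 14.8 and 21.4 TPM in replicates 1 to 4. Its order over the libraries was that of Hist1h1c. Hist1h2ap, chr13:21833026-21833507, had the reverse: 23.1, 1.87, 17.4 and 4.44 TPM in replicates 1 to 4, from 93.4, 8.41, 93.6 and 24.6 counts. It was highest in replicates 1 and 3, where Hist1h1c was lowest. Only 6.93% of its 50-base stretches are unique to it, and its nearest copy, Hist1h2ao, was listed at 0 in every library. The TPM of this short transcript rests on an effective length of 220.7 bases of its 482.

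Of the H2b genes, 2 of 18 were at 1 TPM in every library. Hist1h2bc had 71.6, 129, 113 and 127 TPM in replicates 1 to 4, a mean of 110 ± 26.6 (SD, n = 4), with replicate 1 low and the other 3 between 113 and 129 TPM. Hist2h2be, chr3:96221119-96223738, had 3.29, 7, 3.7 and 6.62 TPM. Every 50-base stretch of its 2620-base transcript is unique to it. Hist1h2bg, at 2.38, 5.62, 0.75 and 1.72 TPM, passed 1 TPM in 3 libraries, and Hist1h2be averaged 0.42 ± 0.28 TPM.

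The H3 and H4 genes, which encode the core of the nucleosome, were low, with 1 of 12 and 1 of 13 at 1 TPM in every library. Hist1h4i, chr13:22040636-22041362, had 4.24, 14.8, 11.3 and 15.2 TPM in replicates 1 to 4, with replicate 1 under the other 3. Hist1h4h averaged 1.13 ± 0.306 TPM, Hist1h4m 0.96 ± 0.422 and Hist1h4k 0.89 ± 1.24 (SD, n = 4), each from at most 6 counts in a library. Hist2h3c2, chr3:96238108-96239127, had 2.24, 4.46, 1.41 and 3.02 TPM. Hist2h3c1 was listed at 0.01, 5.11, 4.77 and 2.06 TPM, but none of its 50-base stretches is unique and the second quantification gave it 0, 0.436, 1.5 and 0 TPM. Hist1h3d averaged 0.418 ± 0.346 TPM and Hist1h3i 0.27 ± 0.335.

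**Figure D2:**
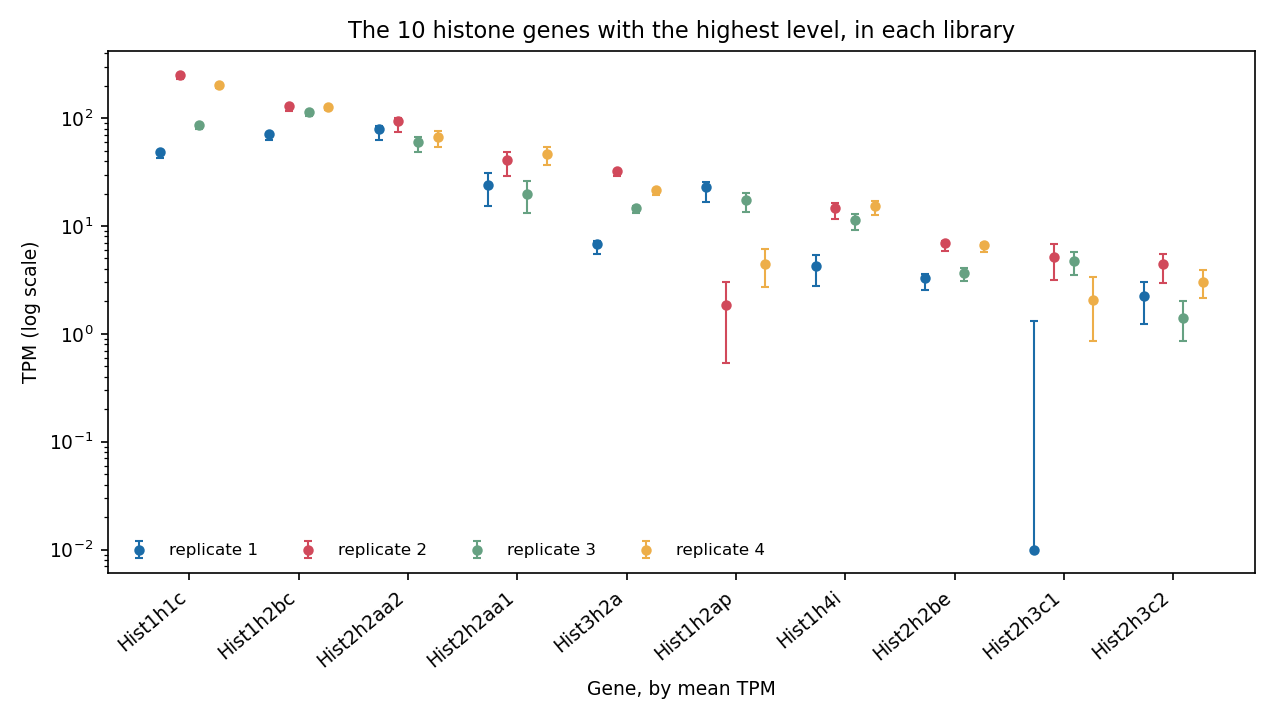
TPM (logarithmic axis) of the 10 histone genes with the highest mean level in each of the 4 libraries. Points are deposited TPM values and bars the deposited credibility intervals. Where a point lies above its interval, as for Hist1h1c in replicate 2, the bar ends at the point. Hist1h1c spans 48.8 to 254 TPM, and Hist1h2ap is the gene whose high values are in replicates 1 and 3; the point of Hist2h3c1 in replicate 1 is 0.01 TPM.

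Most of the histone genes with enough counts to test varied between the 4 libraries. Enough counts for a test against counting noise, a mean of at least 10, were present for 14 of the 67. Of these, 11 were called variable, with an adjusted p under 0.05 by a chi-square test with Benjamini-Hochberg adjustment and a range of at least 2-fold, against 33.1% of the 12626 genes tested. A gene left without counts in a library after rounding needed only the adjusted p, as did Hist2h3c1. The median range was 3.7-fold over the 13 of them with counts in every library, without Hist2h3c1, and 1.68-fold over the 12573 of all genes tested that had them. The 3 not called variable were Hist2h2aa2 (1.54-fold), Hist1h2bc (1.88-fold) and Hist1h2ae. The last had a range of 2.77-fold but did not pass the chi-square test (adjusted p = 0.163). The test covers counting error, with no allowance for reads shared between genes or for the spread expected between cultures.

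Among these 13 the widest range was 12.6-fold for Hist1h2ap, followed by 11.4-fold for Hist1h1d and 6.78-fold for Hist1h2bg. Hist1h1c spanned 5.37-fold and Hist3h2a 4.91-fold. These ranges depended on single libraries. Without replicate 1 the range was 2.73-fold for Hist1h1d, 2.78-fold for Hist1h1c, 2.06-fold for Hist3h2a, 1.28-fold for Hist1h4i (3.7-fold with it) and 1.08-fold for Hist1h2bc. Without replicate 2 it was 5.17-fold for Hist1h2ap, 6.86-fold for Hist1h1d and 2.72-fold for Hist1h2bg, which was then no longer called. Without replicate 3 that of Hist1h2bg was 3.41-fold. Hist1h4i and Hist2h2be were not called without replicate 1. Hist2h3c1, listed near 0 in replicate 1, is given no fold: its credibility interval there reached 1.31 TPM, against 3.17 to 6.75 TPM in replicate 2. Among the 9 genes at 1 TPM in every library, all 9 had a pair of libraries whose credibility intervals did not overlap, against a background of 77.5% of 10250 genes. For Hist1h1c the intervals of all 4 libraries were apart, at 42.7 to 48.1, 232 to 244, 80 to 86.1 and 192 to 201 TPM in replicates 1 to 4. Its deposited point values lie close to or above the upper bounds.

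Of the 11 variable genes 8 were highest in replicate 2, 2 in replicate 4 and 1, Hist1h2ap, in replicate 1. The lowest library was replicate 1 for 6, replicate 3 for 4 and replicate 2 for Hist1h2ap. These counts have no share over all genes beside them, so they cannot be read as particular to the histone genes. Hist1h1c, Hist1h1d, Hist2h2be and Hist3h2a shared 1 order of libraries by scaled count, replicate 2 above 4 above 3 above 1, which 9.71% of all 12626 genes tested had. By TPM of the second quantification Hist1h1d and Hist3h2a kept this order, but Hist1h1c (32.7, 158, 72.2 and 164 TPM in replicates 1 to 4) and Hist2h2be (2.37, 4.51, 3.33 and 5.7) were highest in replicate 4. Hist1h2ap had the exact reverse, replicate 1 above 3 above 4 above 2, an order found in 10.6% of genes tested.

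Genes of DNA synthesis differed between these libraries as well. All 28 S-phase genes, such as Pcna, the sliding clamp of DNA polymerase, and Mcm2 to Mcm7, subunits of the replicative helicase, were highest in replicate 1, and 26 of 28 were called variable, against the 33.1% background. Their summed TPM was 1455, 310, 627 and 410 in replicates 1 to 4. Pcna had 653, 174, 377 and 252 TPM and Mcm6 118, 13.7, 27.7 and 19.3 TPM. The order of Hist1h2ap was also that of 20 of the 28. Hist1h1c, in contrast, had its lowest value in replicate 1, where the S-phase sum was highest, and its highest in replicate 2, where that sum was lowest; by the second quantification its highest value was in replicate 4. Of 18 mitosis genes, 16 were variable; replicate 3 held the highest value of 10 and replicate 1 that of 7. The remaining gene, the proliferation marker Mki67, had 38.3, 49.2, 34.6 and 27.7 TPM in replicates 1 to 4 and was not called variable. In bulk RNA a smaller share of dividing cells and less RNA per cell cannot be told apart. Replicate 1 also had the largest share of ribosomal RNA, 12.4%, and the part of either difference in the histone values was not tested.

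**Figure D3:**
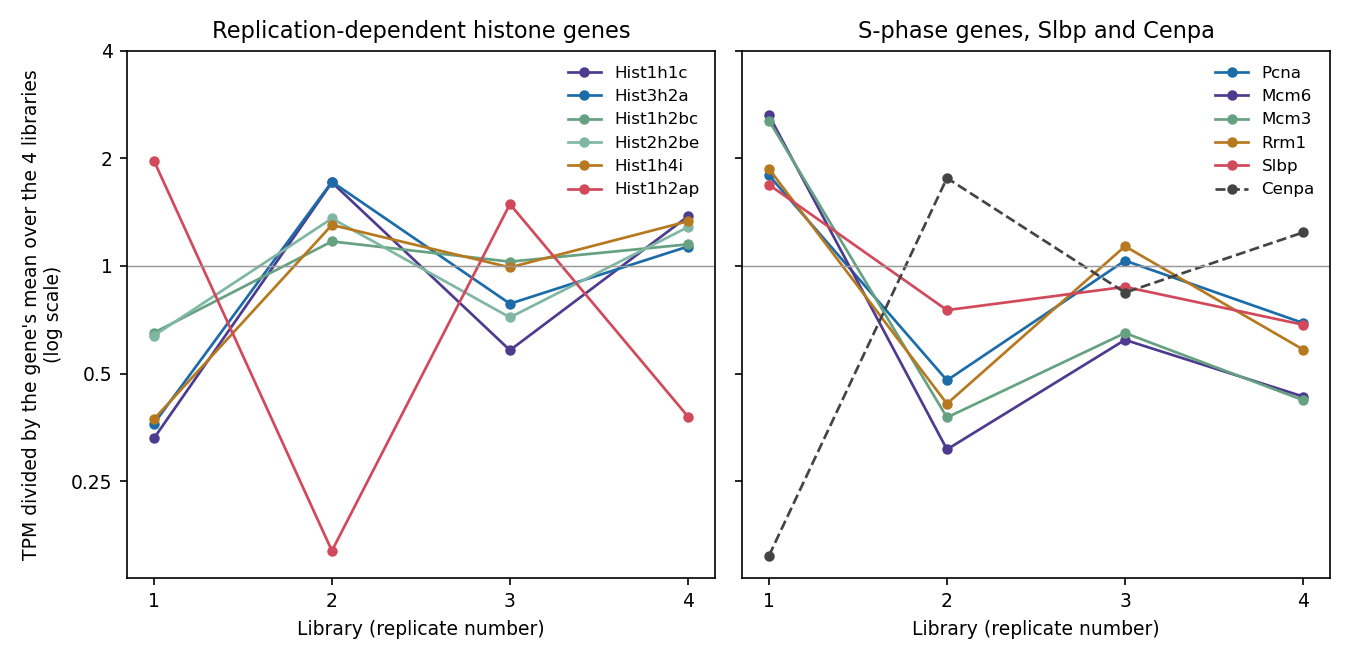
TPM of single genes in each library divided by the gene's mean over the 4 libraries (logarithmic axis; lines only join the points of 1 gene, as replicates have no order). Left, 6 histone genes, of which Hist1h2ap alone is above its mean in replicate 1; right, S-phase genes and Slbp, all highest in replicate 1, and Cenpa, lowest there.

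Most of the listed genes whose products act on histone messenger RNA were detected. Of 20 genes for the cutting, binding and decay of these RNAs, 18 were at 1 TPM in every library, and 3 of 20 were called variable, against the 43.8% of protein-coding genes at that level and the 33.1% of tested genes called. Slbp was 1 of the 3, at 43.8, 19.5, 22.7 and 17.8 TPM in replicates 1 to 4, highest in replicate 1. Not at 1 TPM in every library were Lsm11, at 2.64, 0.95, 0.76 and 0.74 TPM, and Zfp473, at 0.15 to 0.34 TPM. Npat, a coactivator of histone gene transcription in S phase, averaged 2.84 ± 0.39 TPM (SD, n = 4), and its range of 1.21-fold did not pass the chi-square test (adjusted p = 0.0516). Tut7, a terminal uridylyltransferase known in human cells to act in histone mRNA decay, led the list at 71.1 ± 11.1 TPM. Of 12 genes of the general polyadenylation machinery, such as the poly(A) polymerase gene Papola at 76.2 ± 13.2 TPM, all 12 were at 1 TPM in every library and 0 of 12 were called variable. Of 15 histone chaperone genes, which carry histones to and from DNA, 14 were at 1 TPM in every library and 6 were variable, a share near that 33.1%, with Nap1l1 at 134 ± 56.4 TPM the highest.

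Replication-dependent H3 genes stood far below the replacement H3 genes, and the H1 genes above the replacement linker histones. While 9 of the 67 were at 1 TPM in every library, 10 of 11 replacement genes were, and the summed TPM of the replacement genes was 1881, 2704, 2240 and 2067 in replicates 1 to 4. The 12 replication-dependent H3 genes summed to 7.08 ± 3.24 TPM, while H3f3b averaged 1084 ± 138 TPM and H3f3a 732 ± 178 (SD, n = 4), both encoding H3.3. H2afz, the H2A.Z gene, was at 163 ± 18.9 TPM and H2afy, a macroH2A gene, at 82.6 ± 16.2. Of 10 replacement genes tested 5 were variable, against 33.1% of all genes tested. Among them Cenpa, the centromeric H3 variant, had 8.4, 95.7, 45.8 and 67.4 TPM, the same order of libraries as Hist1h1c by the first quantification, with a range of 11.4-fold. H1f0, the linker histone of non-dividing cells, had 31.5, 67.5, 33.3 and 70.6 TPM, also high in replicates 2 and 4. The 6 H1 genes summed to 149 ± 97.2 TPM, against 50.9 ± 21.2 TPM for H1f0 and H1fx together (SD, n = 4 each). Cenpa and H1f0 were named after their values were seen.

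Genes detected in every library had longer annotated 3′ ends by the median, with wide overlap. The 9 genes at 1 TPM in every library had a median of 423 annotated bases after the stop codon, against 85 for the 51 genes below 1 TPM in every library. Past the stem-loop the medians were 330 bases over 7 genes and 65.5 over 32 genes. A poly(A) signal was present in 4 of 9 and in 9 of 51. A long annotated end was no mark of a high level: 15 of the 32 low genes with a loop ran on for over 100 bases, among them Hist1h2ac with 2010 and Hist4h4 with 2445. Conversely Hist2h2aa1, Hist2h2aa2 and Hist1h2ap reached 10 TPM with at most 35 bases after the loop.

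**Figure D4:**
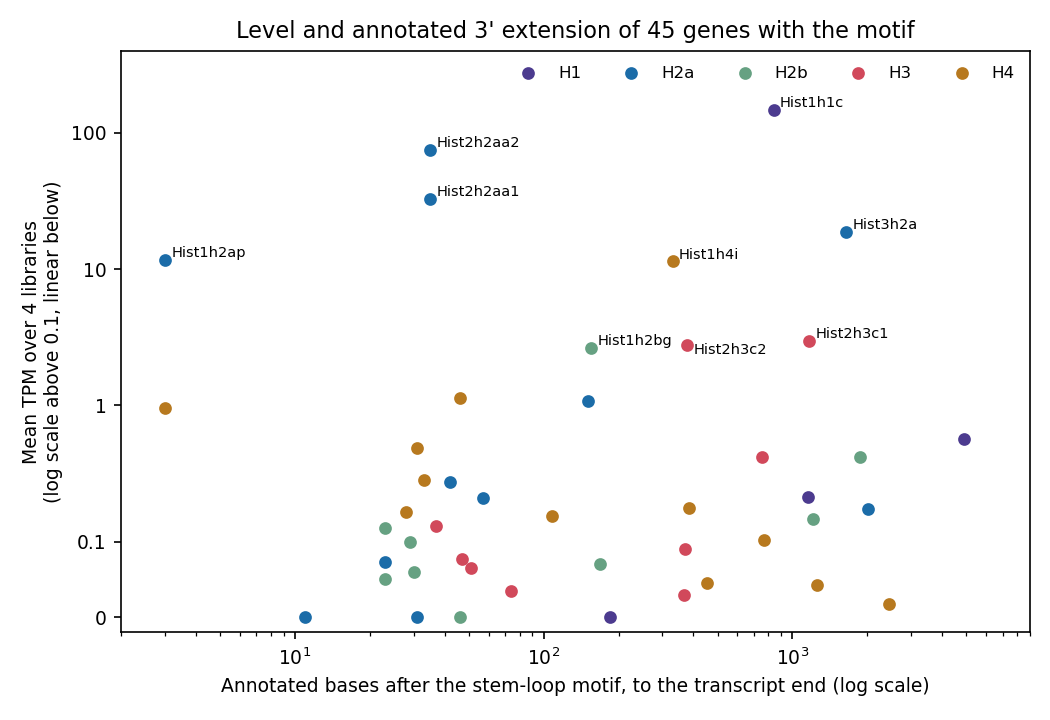
Mean TPM over 4 libraries (logarithmic above 0.1, linear below) against the number of annotated bases from the stem-loop to the transcript end (logarithmic) for the 45 genes with the motif, coloured by family. Genes with over 100 bases past the loop reach from 0 to 148 TPM, and Hist2h2aa1, Hist2h2aa2 and Hist1h2ap stand at 11.7 to 75.4 TPM with 3 to 35 bases.

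Most H2a and H2b genes sit side by side and are transcribed away from a shared interval. Of 13 such pairs with starts within 1000 bases, 12 joined an H2a with an H2b gene. Only 1 pair, Hist1h2bg at 2.62 ± 2.11 TPM with Hist1h2ae at 1.07 ± 0.474, had both means at 1 TPM or more, and 9 pairs had both below. The other 3 pairs were one-sided. Hist1h2bc, at 110 ± 26.6 TPM, has its start 250 bases from that of Hist1h2ac, at 0.172 ± 0.0435, a ratio of 638. Hist1h2ap stood at 11.7 ± 10.2 TPM against 0.0625 ± 0.081 for Hist1h2br. Hist2h2be stood at 5.15 ± 1.93 TPM against 0.21 ± 0.148 for Hist2h2ac. Hist1h2br and Hist2h2ac had at most 2.01 counts in a library, so their ratios are imprecise; Hist1h2ac had 4.25, 9.08, 10.1 and 11.1 counts.

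**Figure D5:**
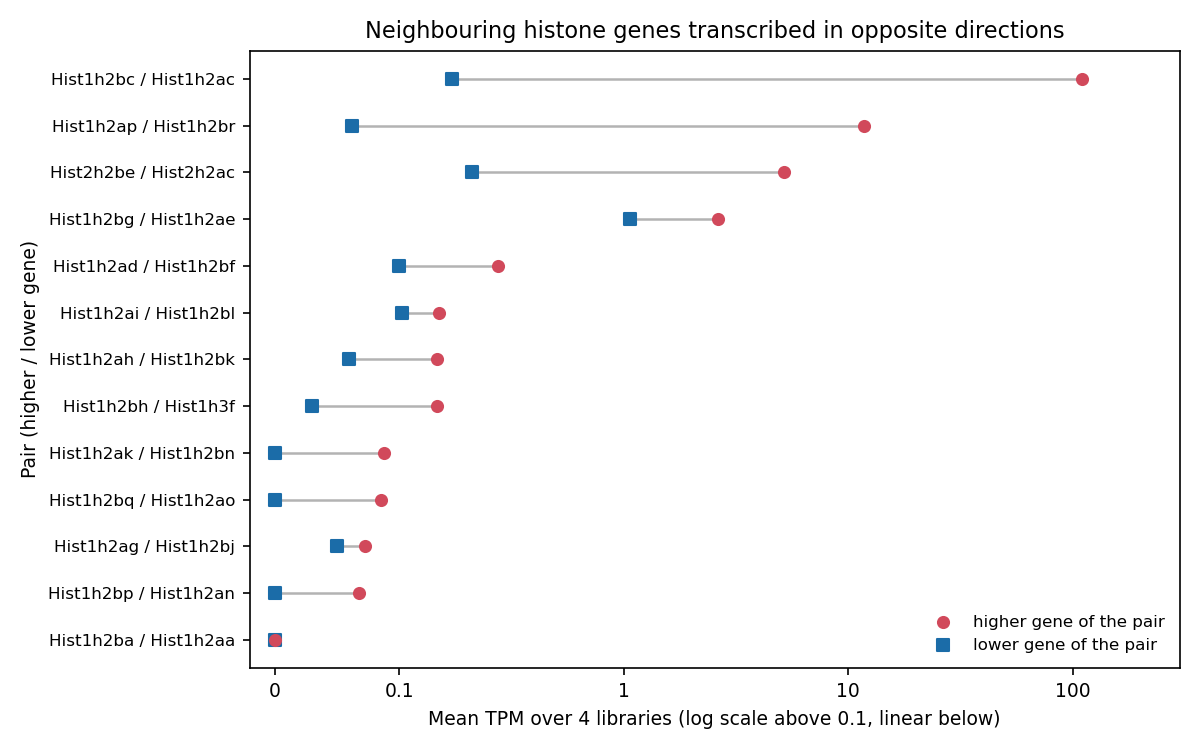
Mean TPM over 4 libraries (logarithmic above 0.1, linear below) of the higher (circle) and lower (square) gene of each of 13 divergent pairs, joined by a line. The pair Hist1h2bc / Hist1h2ac spans 110 to 0.172 TPM, and in 9 pairs both genes lie under 1 TPM.

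Promoter windows of RefSeq (GRCm38.p6, 250 bases before to 50 after the start) were matched to 62 of the 67 genes. The RefSeq start was the GENCODE start of the gene for 17 of the 62. It lay 1770 bases away for Hist1h1d and at most 98 for the others. Each window was searched on both strands for the octamer ATTTGCAT, the CCAAT box and the TATA box TATAAA, none of which contains another. The octamer was present in 13 of 62, or 21%, against 1.74% of all 32851 windows. It lay in 7 of 18 H2a and 6 of 16 H2b windows, and in no H1, H3 or H4 window. Windows of divergent pairs overlap, such as those of Hist1h2ae and Hist1h2bg, both with the octamer, so 1 site can count for both genes. CCAAT was present in 85.5% against 37.4%: in 3 of 12 H4 windows and in every window of the other families. TATAAA was present in 56.5% against 13.6%. Between genes at 1 TPM in every library and those below it in all, the octamer was found in 1 of 7 and in 10 of 48 windows, and CCAAT in 6 of 7 and in 43 of 48. The exact sequence TATAAA, at any place in the window, was in 2 of 7 and in 28 of 48. Related forms of the TATA box were not counted, so these counts do not show which genes lack one. Hist1h2bc and Hist2h2be, also at 1 TPM in every library, had no window and are not among the 7. Their divergent partners Hist1h2ac and Hist2h2ac, counted among the 48, each had the octamer, CCAAT and TATAAA.

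Stretches of 150 bases before the RefSeq start are printed, with the motifs in capitals on either strand. Shown are those of Hist1h1c and Hist1h2ap, whose levels ran in opposite order by the first quantification, and that of Hist1h2ac. The last covers only part of the interval between Hist1h2ac and Hist1h2bc, which starts further on, at chr13:23684199. The stretches, in that order, are chr13:23738657-23738806 (plus strand), chr13:21833476-21833625 (minus strand) and chr13:23683960-23684109 (minus strand), on GRCm38.p6.
Hist1h1c: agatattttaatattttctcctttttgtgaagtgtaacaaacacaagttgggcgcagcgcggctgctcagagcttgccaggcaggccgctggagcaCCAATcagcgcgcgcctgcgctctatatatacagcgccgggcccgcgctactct
Hist1h2ap: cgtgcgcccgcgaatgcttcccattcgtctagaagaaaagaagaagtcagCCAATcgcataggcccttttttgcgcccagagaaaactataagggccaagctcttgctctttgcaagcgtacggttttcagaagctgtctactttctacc
Hist1h2ac: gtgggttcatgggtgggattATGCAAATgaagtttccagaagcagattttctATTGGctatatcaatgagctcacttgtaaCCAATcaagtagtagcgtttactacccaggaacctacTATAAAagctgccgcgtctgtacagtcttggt
The first 2 hold a CCAAT box each, starting 54 and 100 bases before the start. In the Hist1h2ac stretch the octamer starts 130 bases before the Hist1h2ac start, on the reverse strand. It is followed by a CCAAT box on each strand and a TATA box at 32 bases. The bases nearest the Hist1h2bc start are not printed.

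The second quantification, made directly from the read files per the deposited lists of files, gave the histone genes 0.718 ± 0.0749 (SD, n = 4) of their first summed TPM. The median ratio over the 9 genes at 1 TPM was 0.721, near the 0.778 over the 9641 protein-coding genes at that level. Hist2h2be (0.772), Hist3h2a (0.727), Hist1h1c (0.721) and Hist1h2bc (0.719) were close to it. The near-identical pair was not: Hist2h2aa2 had a ratio of 0.529 and Hist2h2aa1 one of 0.952, and in replicate 4 the second quantification placed 63.6 TPM on Hist2h2aa1 and 9 on Hist2h2aa2, where the first placed 46.4 and 66.9. Their sum by the second quantification, 71 ± 11.8 TPM, had a range of 1.52-fold. Hist1h2ap had 14.7, 1.03, 12.3 and 3 TPM in replicates 1 to 4 by the second quantification, so its order was the same by both.

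The libraries of replicates 1 and 2 were listed with 6 read files and those of replicates 3 and 4 with 4, the only recorded technical difference. In edgeR's quasi-likelihood test of libraries with 6 files against those with 4, 0 of 14 histone genes tested passed an adjusted p of 0.05, against a background of 0% (0 of 12701 genes). At an unadjusted p under 0.05 there were 0 histone genes and 290 genes in all. DESeq2 called 37 genes, none of them a histone gene. The log2 difference was -0.01 ± 0.788 (SE) for Hist1h1c, -0.33 ± 0.347 for Hist1h2bc and 0.15 ± 1.17 for Hist1h2ap, with the 2 libraries of each kind on opposite sides of the mean for Hist1h1c and Hist1h2ap. Without replicate 2, Hist2h3c1 was called (adjusted p = 0.0423, edgeR), a gene with no unique 50-base stretch.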

How the data were processed

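Libraries of polyadenylated RNA were measured as 1 group; fragments of 250 to 400 bases and 1 µg of input are stated in the labels. Per the deposited lists of files, the tables use mm10 and GENCODE M21; the tools and strand setting: not given in the sources used here. Expected counts, estimates that need not be whole, and TPM are deposited per gene, with the bounds of a TPM credibility interval, a signal of unstated probability in the deposited tables. The posterior SD of a count is a deposited score, and the deposited transcript table gives the percent of a gene's TPM in each transcript. A second deposited transcript table holds estimated counts and TPM, summed here to genes.

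The members and lists were chosen with earlier results of these data known. Expected counts were rounded and scaled with edgeR 4.0.16 (TMM, R 4.3.3). Counts were tested against counting noise by chi-square (3 degrees of freedom), and the read-file contrast with edgeR; DESeq2 1.42.0 was the alternative. Both steps were tested on simulated data. Spike-in and number-only rows stayed out; all rows that name no gene held 0.103% to 0.118% of counts. Named genes were the 4 highest of each family, the 3 with the widest range, the 3 with the most different quantifications, and up to 4 of each list plus Slbp, Npat, Pcna and Mki67. Genes named outside this rule include Lsm11, Zfp473, Mcm2, Cenpa, H1f0 and Hist1h2ac. Python 3.11.15, pandas 2.3.3 and matplotlib 3.10.9 did the rest. Alternatives covered scaling, count and TPM thresholds, the second quantification and leaving out each library.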

Additional observations from a re-analysis of the deposited data

Results flagged for a closer look

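Of 27 sets of 4 library values examined, those of the named genes and of the family sums, 1 had a library far from the other 3. Hist1h1b was listed at 0.42 TPM in replicate 2, from 4 counts, and at 0 TPM in the other 3 libraries, a gap that took up the whole range (Dixon's ratio 1, above its 95% critical value for 4 values). Any gene with counts in 1 library only gives this ratio, so the flag follows from the values of 0. Chance flags about 1 in 20 sets of normally distributed values, a rate that need not hold here. The 4 counts are close to the limit of 3 counts used for a value of 0.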

How the results depend on the processing

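No paired analysis was possible because all 4 libraries belong to 1 group. The count of genes at 1 TPM in every library was 9; it was 10 by the second quantification, 7 to 12 with thresholds of 2 and 0.5 TPM, and 9 to 11 when 1 library was left out. The count of variable genes was 11 of 14 tested, against 33.1% of all genes tested, and 8 to 15 over the other settings. With a mean count of at least 50 it was 8 of 10, against 27.4% of all genes. With no count minimum it was 15 of 55, near the 24.5% of all genes. Leaving out 1 library gave 10 or 11 of 13 to 16 tested, against 16.6% to 29.3% of all genes. Hist1h4i and Hist2h2be were not called without replicate 1, Hist1h2bg without replicate 2 and Hist2h2aa1 without replicate 3. With Hist2h2aa1 and Hist2h2aa2 counted as 1 gene, an alternative chosen after seeing the data, 10 genes were variable and 8 were at 1 TPM. Hist2h2aa2 had a range of 7.67-fold by the second quantification, against 1.54-fold; its split from Hist2h2aa1 differed between the quantifications. The summed TPM was 374 to 484 when 1 library was left out, 307 by the second quantification and 528 when scaled over nuclear protein-coding genes. The count of genes differing by number of read files was 0 to 1 when 1 library was left out, where the lone library of a kind is assumed to vary like the other 2; the cause was not tested, and over all genes it was 0, 37 by DESeq2, 18 with no filter and 0 to 98 without 1 library. Genes with fewer than 10 counts were too shallow to compare.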
